A study of Mus musculus with 2 samples.

Results

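The 7 genes described here were Hmgcs1, Mvd, Fdps, Fdft1, Sqle, Lss and Cyp51, which encode enzymes of cholesterol synthesis. They were taken as a list of names from the sterol pathway. All 7 were found among the 31253 genes of the expression table and all 7 passed the minimum of 1 FPKM in at least 1 library, which left 13780 genes to compare. None of the 7 is an uptake gene, so genes of sterol uptake are given further on as a separate list. The first library came from mouse neural retinal progenitor cells (mNRPCs) of strain C57BL/6 at passage 24. By the methods of the study, the cells were isolated from the neural retina of adult mice and grown on Matrigel in N2/B27 medium with bFGF, a growth factor, and CHIR99021, an inhibitor of the kinase GSK3. The second library came from whole retina tissue of C57BL/6 mice, which had not been cultured, and no sex or pooling of animals was given for either. With 1 library per group, strain was shared, whereas culture, medium and the starting material differed together and cannot be told apart. No spread between replicates could be calculated, and no p-value is given.

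Cholesterol is built from acetyl-CoA. HMG-CoA synthase, the product of Hmgcs1, makes HMG-CoA, which is reduced to mevalonate. Mevalonate is phosphorylated and decarboxylated to isopentenyl pyrophosphate, with Mvd at the decarboxylation step, and Fdps joins isoprene units into farnesyl pyrophosphate. Fdft1, squalene synthase, commits farnesyl pyrophosphate to sterols, Sqle oxidises squalene, Lss closes the ring to lanosterol, and Cyp51 removes a methyl group from lanosterol. Most genes of the route are activated by the transcription factor encoded by Srebf2 when sterol in the endoplasmic reticulum is low. That factor binds sterol regulatory elements (SREs) next to sites for NF-Y, which reads the CCAAT box, and Sp1, which reads the GC box. The neural retina is known both to make cholesterol and to take it up from lipoproteins.

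The upstream sequences show where these motif letters lay in the members. A window of 250 bases before the RefSeq gene start was found for 4 of the 7 members, namely Hmgcs1, Mvd, Lss and Cyp51. Sequences are from RefSeq, build GRCm38.p6, and read 5′ to 3′ on the strand of the gene, with matches to the SRE (TCACCCCAC), the CCAAT box (CCAAT) and the GC box (GGGCGG) on either strand in capitals. The Hmgcs1 window lay at chr13:119690101-119690350 on the plus strand and the Mvd window at chr8:122443423-122443672 on the minus strand, where it overlapped the span of the long noncoding RNA gene 9330133O14Rik. For Lss, 210 bases at chr10:76531355-76531564 on the plus strand are shown, and for Cyp51, 201 bases at chr5:4104747-4104947 on the minus strand, since the remaining 40 and 49 bases of their windows lay within the annotated genes. All printed bases are upstream of the first exon that GENCODE M21 gives for the member itself.
Hmgcs1: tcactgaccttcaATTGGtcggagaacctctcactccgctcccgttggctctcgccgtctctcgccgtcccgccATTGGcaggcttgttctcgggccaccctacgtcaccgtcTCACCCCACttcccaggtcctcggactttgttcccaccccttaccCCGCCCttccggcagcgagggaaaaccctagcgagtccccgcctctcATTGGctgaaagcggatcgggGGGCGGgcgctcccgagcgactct
Mvd: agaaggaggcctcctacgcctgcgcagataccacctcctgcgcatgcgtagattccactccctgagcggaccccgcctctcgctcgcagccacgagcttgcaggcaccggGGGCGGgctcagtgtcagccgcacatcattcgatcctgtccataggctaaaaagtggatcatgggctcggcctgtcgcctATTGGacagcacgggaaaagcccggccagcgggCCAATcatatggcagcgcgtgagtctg
Lss: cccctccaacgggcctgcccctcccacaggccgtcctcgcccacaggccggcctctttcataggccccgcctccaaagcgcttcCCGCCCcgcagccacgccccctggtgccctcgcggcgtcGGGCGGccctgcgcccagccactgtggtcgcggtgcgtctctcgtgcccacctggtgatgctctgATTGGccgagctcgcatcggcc
Cyp51: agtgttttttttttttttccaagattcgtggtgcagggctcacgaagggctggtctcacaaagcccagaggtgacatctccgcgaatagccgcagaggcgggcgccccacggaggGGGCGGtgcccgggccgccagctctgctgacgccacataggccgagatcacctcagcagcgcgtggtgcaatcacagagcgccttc

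The SRE letters were present in 1 of the 4 windows, that of Hmgcs1, on the plus strand from 137 to 129 bases before the start. They occurred in 0.496% of all 32851 windows of the same length, and in 0 of the 12 windows found for the 14 other synthesis genes described further on. CCAAT was present in 4 of 4 windows, against 33.8% of all windows, and GGGCGG in 4 of 4, against 32.7%. Both were found together in 4 of 4 members and in 10 of the 12 other synthesis windows, against 11.0% of all windows. Hmgcs1 held 3 copies of CCAAT, the nearest on the minus strand at 45 to 41 bases before the start. In Mvd the copies ended 56 and 23 bases before the start. The copy in Lss, 62 to 58 bases before the start, was the only one in that window. The copy in Cyp51, 29 to 25 bases before the RefSeq start, fell in the 49 bases that GENCODE M21 places in the first exon and is therefore not printed. None of the motif letters overlapped one another. Only these exact letters were searched, so an SRE of another spelling would be neither marked nor counted. A window without the letters is therefore not shown to lack an SRE. The matches describe letters in the sequence and were not tested for binding.

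All 7 members were at least 2-fold higher in mNRPCs than in retina on the scale of log2(FPKM + 1), and 0 were lower. FPKM counts fragments relative to transcript length and to the mapped fragments of the library, so levels of different genes are compared per length. The same 2-fold limit was passed upwards by 24.5% of the 13780 genes compared and downwards by 30%. The median log2 ratio of the members was 2.16, whereas that of all genes compared was −0.12. Added together, the members held 1108 FPKM in mNRPCs and 169 FPKM in retina, a ratio of 6.55. They made up 0.180% of all FPKM in mNRPCs and 0.0391% in retina. The total was dominated by 1 gene in the cultured cells, as Fdps accounted for 56.8% of it in mNRPCs and 28.3% in retina. Without Fdps the sums were 478 and 121 FPKM, and their ratio was 3.94.

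**Figure D1:**
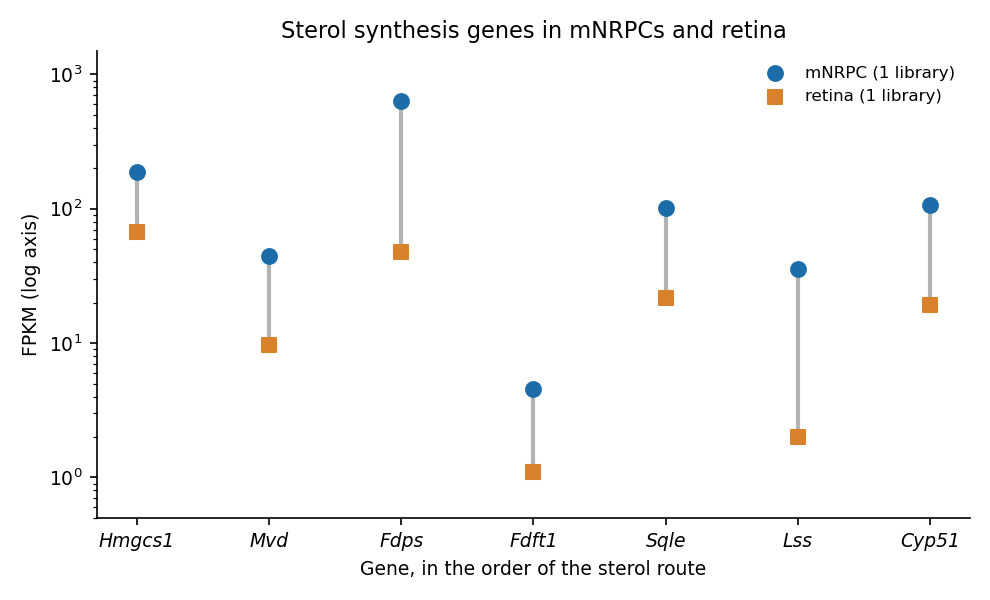
FPKM of each of the 7 sterol synthesis genes on a log axis, in the order of the route, with circles for the mNRPC library and squares for the retina library (1 library each). Every circle lies above its square, from 4.54 against 1.10 FPKM for Fdft1 to 629 against 47.8 FPKM for Fdps.

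At the entry of the route, Hmgcs1 was at 186 FPKM in mNRPCs and 67.5 FPKM in retina. It had the highest level of the members in retina and the second highest in mNRPCs. Its FPKM ratio, 2.76, was the lowest of the 7, and its log2 ratio was 1.45. About 4046 fragments in mNRPCs and 1058 in retina were estimated to lie behind these values, which gave a 95% counting interval of 1.35 to 1.55 for the log2 ratio. Such intervals cover counting error in these libraries only and not the spread between cultures or animals.

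Mvd, the decarboxylase that yields isopentenyl pyrophosphate, was at 44.4 FPKM in mNRPCs and 9.72 FPKM in retina. The mNRPC level was 4.57 times that of retina, with a log2 ratio of 2.08 (95% counting interval 1.78 to 2.39). Only about 82.4 fragments stood behind the retina value, so its interval was wider than that of Hmgcs1.

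Fdps, whose product farnesyl pyrophosphate feeds sterols as well as ubiquinone, dolichol and protein prenylation, reached 629 FPKM in mNRPCs, against 47.8 FPKM in retina. This was the highest level of any member in mNRPCs, and 1.05% of all genes compared were higher there. In retina 10.9% of genes were higher. The FPKM ratio was 13.2 and the log2 ratio 3.69 (3.52 to 3.86), and 3.11% of all genes compared had a higher log2 ratio.

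Fdft1, the first enzyme devoted to sterols, was the lowest member in both libraries, at 4.54 FPKM in mNRPCs and 1.10 FPKM in retina. In mNRPCs it lay 139-fold below Fdps, its direct supplier in the route. This level is the sum of 2 matched transcript rows, and 1 predicted row held 96.7% of it in mNRPCs. As 69.6% of all rows matched a gene, any Fdft1 transcript among the unmatched rows would be missing from it. The FPKM ratio of Fdft1 was 4.13. The log2 ratio was smaller, 1.40, since adding 1 to each FPKM weighs most on low values. An estimated 112 and 19.6 fragments gave the widest counting interval of the 7, 1.001 to 1.80.

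Sqle, the squalene epoxidase that catalyses the first oxygenation, stood at 101 FPKM in mNRPCs and 21.8 FPKM in retina. The log2 ratio was 2.16 (1.99 to 2.33), the middle value of the 7 members. Lss, the cyclase that follows it, was at 35.5 FPKM in mNRPCs and 2.01 FPKM in retina. It had the largest FPKM ratio of the members, 17.7, although its level in mNRPCs was the second lowest. The log2 ratio was 3.60 (3.31 to 3.89), with about 1108 and 45.3 fragments behind it. Cyp51, the lanosterol demethylase, was at 107 FPKM in mNRPCs and 19.2 FPKM in retina, a ratio of 5.55 with a log2 ratio of 2.41 (2.26 to 2.56).

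The order of the levels differed between the libraries at its upper end. In mNRPCs it ran Fdps, Hmgcs1, Cyp51, Sqle, Mvd, Lss and Fdft1, whereas in retina Hmgcs1 stood before Fdps and Sqle before Cyp51. The exchange of Fdps and Hmgcs1 was the larger of the 2, since Hmgcs1 was at 0.296 times Fdps in mNRPCs and at 1.41 times Fdps in retina. Sqle was at 0.948 times Cyp51 in mNRPCs and at 1.13 times Cyp51 in retina. The median level of the members was 101 FPKM in mNRPCs, where the median of all genes compared was 8.72 FPKM. In retina these medians were 19.2 and 9.52 FPKM. Fdft1 was below the gene median in both libraries, and Lss changed sides, as 82.4% of genes were higher than Lss in retina and 17.8% in mNRPCs.

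The members differed among themselves by more than counting error in most pairs. Of the 21 pairs of log2 ratios, 17 had a 95% counting interval of the difference that left out 0. Fdps and Lss formed the upper end and differed by 0.09 (−0.25 to 0.43). Hmgcs1 and Fdft1 formed the lower end and differed by 0.05 (−0.36 to 0.46). Between them, Mvd differed from Sqle by −0.08 (−0.43 to 0.27) and from Cyp51 by −0.33 (−0.67 to 0.01), while Sqle was below Cyp51 by an interval that left out 0 (−0.25, −0.48 to −0.02). Hmgcs1 differed from Fdps by −2.24 (−2.43 to −2.05). The order and these intervals are for a pseudocount of 1, the deposited scaling and all matched rows summed per gene. With a pseudocount of 0.1, Fdft1 (1.95) stood above Hmgcs1 (1.46) and near Mvd (2.18), and Lss (4.08) above Fdps (3.72). With both libraries set to the same sum, Hmgcs1 (0.95) fell below Fdft1 (1.24), and Lss (3.37) stood above Fdps (3.19). The same exchanges were seen after rescaling without ribosomal protein and rod genes. The intervals compare genes within 1 pair of libraries and do not say whether the order would hold in others.

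The 14 transcript rows of the members, 10 of curated and 4 of predicted transcripts, were not equally informative. Sqle and Cyp51 had 1 row each. In Mvd and Lss a single coding row held nearly the whole gene value, with 44.4 and 9.71 FPKM for Mvd and 35.4 and 2.01 FPKM for Lss in mNRPCs and retina. Fdps had 2 curated rows, and the larger one, at 559 FPKM in mNRPCs and 44.2 FPKM in retina, held 88.8% and 92.4% of the gene. Both Fdps rows were higher in mNRPCs, with log2 ratios of 3.96 and 3.63.

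Hmgcs1 was spread over 3 rows. The first curated row was at 76.0 FPKM in mNRPCs and 20.3 FPKM in retina, the second at 43.9 and 27.8 FPKM, and the predicted row at 66.5 and 19.5 FPKM. Each was higher in mNRPCs, but the second curated row, with a log2 ratio of 0.64, was less than 2-fold higher. It was the largest row in retina, with 41.1% of the gene, and the smallest in mNRPCs, with 23.5%. In Fdft1 the rows went in opposite directions. The curated row was at 0.149 FPKM in mNRPCs and 0.342 FPKM in retina, a log2 ratio of −0.22, while the predicted row was at 4.39 and 0.756 FPKM, a log2 ratio of 1.62. The predicted row held 96.7% of Fdft1 in mNRPCs and 68.9% in retina, so the direction of Fdft1 rested on it. The curated row alone was under the minimum of 1 FPKM in both libraries and would not have been compared. As fragments that fit several transcripts were divided by estimation, shares of single rows are less certain than the gene sums.

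**Figure D2:**
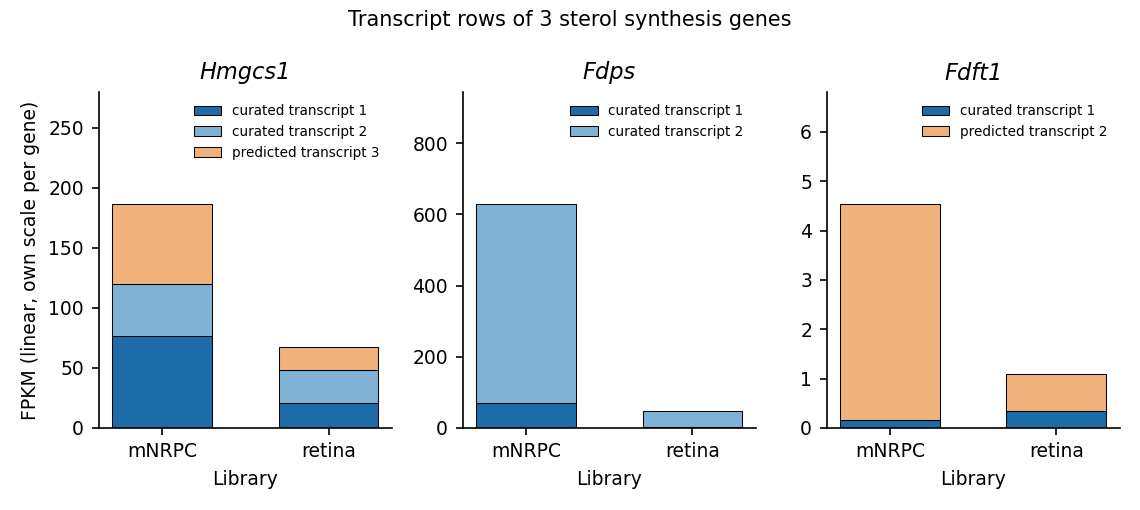
Stacked bars of the FPKM of each transcript row of Hmgcs1, Fdps and Fdft1 in the mNRPC and retina libraries, on a linear axis from 0 with its own scale for each gene. All rows of Hmgcs1 and Fdps are taller in mNRPCs, whereas the curated row of Fdft1 is at 0.149 FPKM in mNRPCs and 0.342 FPKM in retina.

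The deposited FPKM did not add up to the same total in both libraries (616860 in mNRPCs and 432256 in retina), so every ratio depends on the scaling. With both libraries set to the same sum, the median of all genes moved from −0.12 to −0.68 and that of the members from 2.16 to 1.68, which left the members 2.37 above all genes, against 2.28 as deposited. Under this scaling 6 of the 7 members were at least 2-fold higher, against 18.4% of all 14961 genes then compared, and Hmgcs1 lay just below, at a log2 ratio of 0.95. The share of higher genes among those at least 2-fold apart was 30.2% after rescaling and 44.9% as deposited. With trimmed mean or upper quartile scaling all 7 members stayed at least 2-fold higher.

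**Figure D3:**
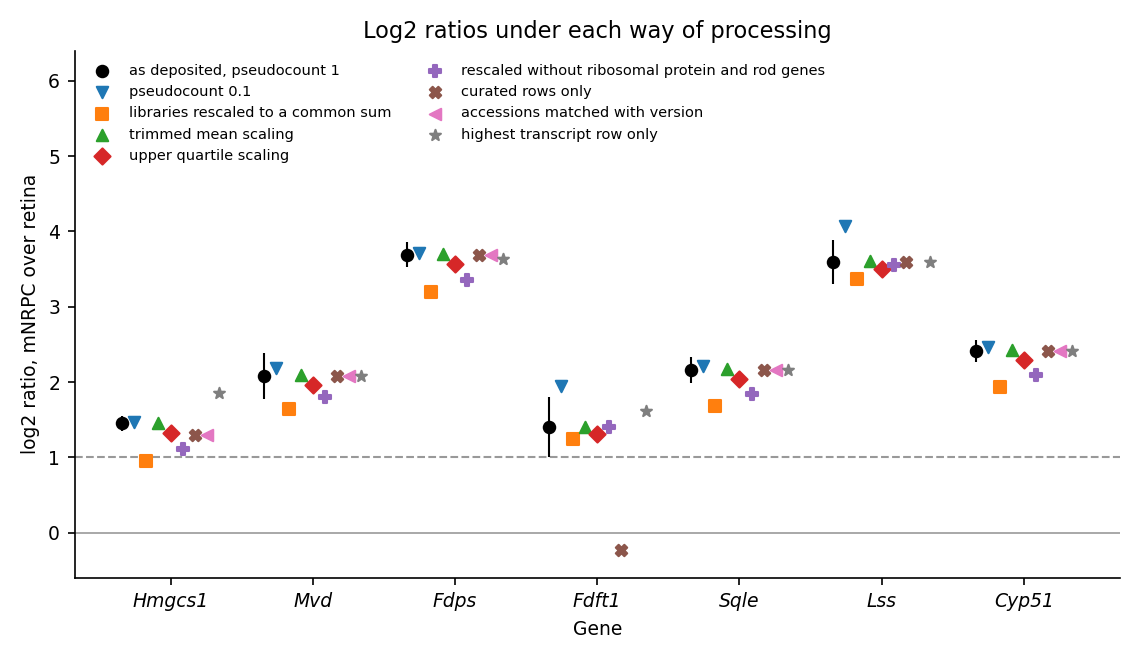
Log2 ratio of each member (mNRPC over retina) as deposited (black circles, with bars for the 95% counting interval) and under 8 other ways of processing (other symbols), with a dashed line at 2-fold and a solid line at no difference. Values lie above 0 in every case but one, Fdft1 with curated rows only at −0.22 (under 1 FPKM in both libraries), and Hmgcs1 lies below 2-fold, at 0.95, when both libraries have the same sum.

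The rest of the synthesis route was also mostly higher in mNRPCs. Of 14 other synthesis genes, 12 were at least 2-fold higher in mNRPCs, beside 24.5% of all genes, 0 were lower, and 2 lay below 2-fold at log2 ratios of 0.90 and 0.93. Their median log2 ratio was 2.14, and their levels added up to 1208 FPKM in mNRPCs and 293 FPKM in retina. For the route as a whole, 19 of 21 genes were at least 2-fold higher, or 15 of 21 once both libraries had the same sum (18.4% of all genes). Acat2, the thiolase at the head of the route, had the largest log2 ratio of the list, 3.08, at 129.5 FPKM in mNRPCs and 14.4 FPKM in retina. Msmo1, which oxidises the sterol methyl groups after Cyp51 has acted, was at 254 and 44.5 FPKM (log2 ratio 2.49). Nsdhl and Hsd17b7, which complete the removal of these groups, were at 57.5 and 10.8 FPKM (2.31) and at 22.1 and 3.99 FPKM (2.21). Cyp51 itself, at 2.41, lay between Msmo1 and these genes. Near the lower end were Ebp, a sterol isomerase, at 33.1 and 13.3 FPKM (1.25), and Lbr, a sterol reductase that is also a protein of the nuclear envelope, at 31.1 and 13.2 FPKM (1.18). After rescaling, the log2 ratios of Ebp and Lbr were 0.78 and 0.71.

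Of 11 non-sterol isoprenoid genes, in the branches that share farnesyl pyrophosphate with the sterol route, 2 were higher and 2 lower by at least 2-fold, with a median log2 ratio of −0.45. These shares, 18.2% each way, were near or below those of all genes compared (24.5% and 30%), and the difference from the sterol route was not tested. Nus1, a subunit of the dolichol-making prenyltransferase, was at 41.2 FPKM in mNRPCs and 15.5 FPKM in retina (1.35). Rabggtb, the beta subunit of the enzyme that prenylates Rab proteins, was at 121 and 59.1 FPKM (1.02), but its alpha subunit Rabggta was at 3.23 and 10.9 FPKM (−1.50). Ggps1, which extends farnesyl to geranylgeranyl pyrophosphate and so uses the product of Fdps, was at 15.6 and 24.1 FPKM (−0.60). In the same direction, Fntb and Pggt1b, subunits of the protein prenyltransferases, had log2 ratios of −0.79 and −0.66. Once rescaled, 0 of the 11 passed 2-fold upwards and 5 downwards, where 2751 and 6349 of 14961 genes did.

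Among 7 genes of the machinery that controls SREBP, 2 were higher and 1 lower by at least 2-fold, beside 24.5% and 30% of all genes compared, and 1 was higher and 1 lower after rescaling. Counts this close to the background are not a result about the list. Insig1, an endoplasmic reticulum protein that retains the SREBP precursor when sterol is plentiful and is itself an SREBP target, was at 321 FPKM in mNRPCs and 38.7 FPKM in retina (3.02). Srebf2 was at 73.6 and 30.4 FPKM (1.25, and 0.75 after rescaling). Scap, which escorts the precursor to the Golgi, was lower in mNRPCs, at 16.9 and 36.4 FPKM (−1.06). The log2 ratios of Srebf1, Insig2, Mbtps1 and Mbtps2 lay between 0.17 and 0.52, and those of Srebf1, Insig2 and Mbtps1 changed sign after rescaling, as did the median of the list, from 0.36 to −0.13.

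Uptake and intracellular transport genes were divided. Of 11, 6 were higher and 1 lower by at least 2-fold, with a median log2 ratio of 1.19, beside 24.5% and 30% of all genes. With both libraries at the same sum, 5 were higher and 3 lower (median 0.73), beside 2751 and 6349 of 14961 genes. Npc2, which binds cholesterol in the lysosome, and Lipa, which frees it from its esters there, were at 158 and 93.0 FPKM in mNRPCs against 11.7 and 6.57 FPKM in retina (3.65 and 3.63). Vldlr, a receptor for triglyceride-rich lipoproteins and reelin, went the other way, at 6.61 FPKM in mNRPCs and 42.4 FPKM in retina (−2.51). Stard3, which moves cholesterol between endosome and endoplasmic reticulum, was at 10.2 and 15.1 FPKM (−0.52, and −1.03 after rescaling).

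Genes of efflux and turnover had the opposite balance to the members, with 8 of 11 lower in mNRPCs by at least 2-fold and 2 higher (median −1.42), beside 30% and 24.5% of all genes. After rescaling the list counts were again 8 and 2, while the lower genes among all compared grew to 6349 of 14961. The exporter gene Abcg4 was at 0.0357 FPKM in mNRPCs and 43.8 FPKM in retina, and Abcg1 was listed at 0 in mNRPCs and at 20.6 FPKM in retina. Abca1, the transporter that loads cholesterol onto apolipoproteins, was at 1.64 and 6.07 FPKM (−1.42). Cyp27a1, a sterol hydroxylase, was at 0.204 and 6.23 FPKM (−2.58). Soat1, which esterifies cholesterol for storage, was higher in mNRPCs, at 15.0 and 3.69 FPKM (1.77). Fatty acid synthesis genes, partly targets of the same factors, had 7 of 11 higher and 1 lower, with a median of 1.85, beside 24.5% and 30% of all genes. After rescaling 6 were higher, beside 18.4% of all genes, and 1 lower. The desaturases led this list. Scd1 was at 209 FPKM in mNRPCs and 3.79 FPKM in retina (5.45), and Scd2 at 676 and 105 FPKM (2.67). The log2 ratios of Acly and Acaca, which make cytosolic acetyl-CoA and malonyl-CoA, were 0.50 and 0.03, or −0.01 and −0.46 after rescaling, and Me1, a source of NADPH, was lower in mNRPCs (29.9 and 69.3 FPKM, −1.19).

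**Figure D4:**
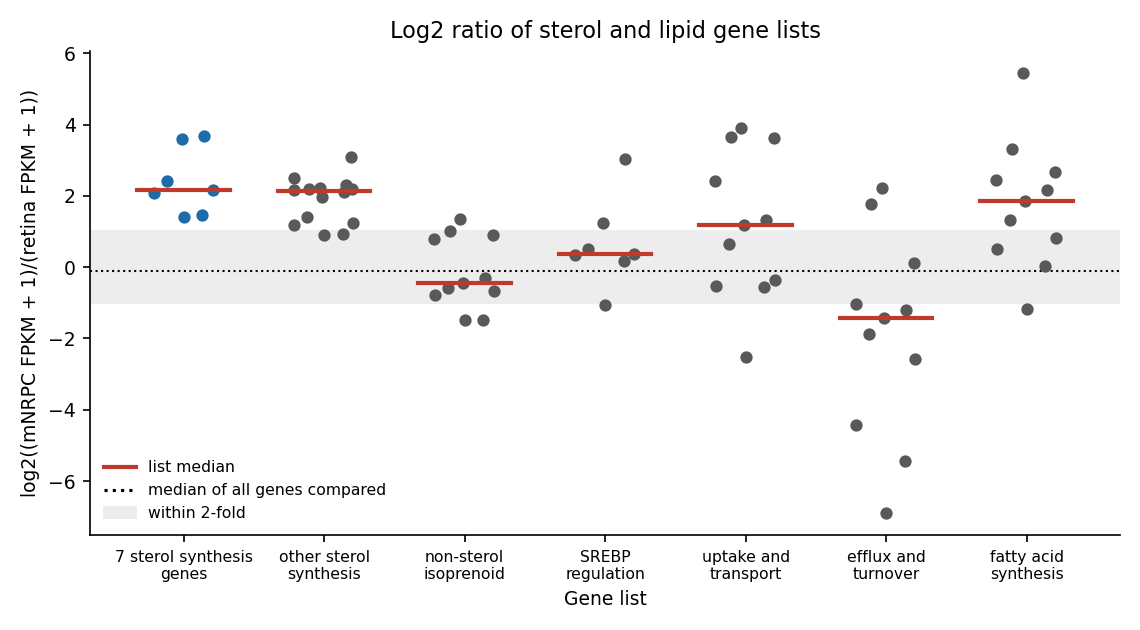
Log2 ratio (mNRPC over retina, on FPKM + 1) of every gene in 7 lists, with 1 point per gene, a bar at each list's median, a dotted line at the median of all genes compared and a grey band within 2-fold. The 7 sterol synthesis genes (median 2.16) and the 14 other synthesis genes (median 2.14) lie mostly above the band, the non-sterol isoprenoid genes (median −0.45) mostly within it, and most efflux and turnover genes below it.

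Markers of retinal cell types and of proliferation also differed between the libraries. Depth was estimated at 6.69e+06 fragments for mNRPCs and 4.83e+06 for retina. All 10 rod markers were lower in mNRPCs, with sums of 19.5 FPKM in mNRPCs and 23131 FPKM in retina, and the same direction held for all 6 Müller glia markers (49.8 and 1319 FPKM). All 6 proliferation markers were higher in mNRPCs (447 and 29.96 FPKM), and 27.7 FPKM of the retina sum came from Ccna2, which was at 123 FPKM in mNRPCs. Of 12 retinal progenitor markers, 6 were higher and 4 lower by at least 2-fold, and the lower share lay near that of all genes. Sox2 was at 231 FPKM in mNRPCs and 18.5 FPKM in retina, while Rax and Six6 were listed at 0 in mNRPCs. Microglia markers summed to 0.00796 FPKM in mNRPCs, with 5 of 6 listed at 0, and endothelial markers to 0.0459 FPKM. Among 6 fibroblast markers Col3a1 was at 450 FPKM in mNRPCs and 0.311 FPKM in retina, whereas Col1a2 was at 0.0843 and 0.952 FPKM, and Lum was listed at 0 in both libraries. The part of these marker differences in the ratios of the 7 sterol genes was not tested. In such bulk libraries, fewer cells of a type and less RNA per cell cannot be told apart.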

How the data were processed

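RNA-seq was available for 2 mouse libraries, 1 per group, grouped by the labels. The authors deposited FPKM per RefSeq transcript. The study's methods describe Bowtie 2 alignment and eXpress estimation, whereas the submitters' processing notes list TopHat2 2.0.10 and GRCm38.p3, and the sources name different sequencers. The annotation release was not given in the sources used here. Rows were matched by accession, without version, to RefSeq (GRCm38.p6) and then GENCODE M21. Of 106754 rows, 69.6% matched, with 93.2% of the mNRPC and 89.9% of the retina FPKM, and they were summed per gene. Estimates below 1e-06 were read as 0. An exact 0 can be a failed estimate, so such genes are called listed at 0. Ratios were log2((mNRPC FPKM + 1)/(retina FPKM + 1)) for genes that reached 1 FPKM in either library, computed with Python 3.11.15, pandas 2.3.3 and numpy 2.4.6 and tested on simulated data. A gene was called at a 2-fold difference, with no test.

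Depth was estimated from low FPKM values times transcript length, for genes with 1 curated row of at least 1500 bp. The peak of these products was assumed to stand for 1 fragment, although fragments divided by estimation can be fractions. At that peak lay 150 of 510 low rows in mNRPCs and 136 of 502 in retina. Counting intervals (95%, delta method) rest on this depth estimate and are approximate. Alternatives were another pseudocount, scalings, filters, row choices and a stricter threshold. Members and lists were chosen with earlier results of these data known. Named list genes were those of up to 4 largest and up to 4 smallest log2 ratios with at least 5 FPKM in 1 library, the 7 SREBP genes and the markers that define a cell type. Some genes enter list counts without being named.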

Additional observations from a re-analysis of the deposited data

How the results depend on the processing

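Values were recomputed with a pseudocount of 0.1, 4 other scalings, curated rows only, versioned accessions, the highest row only, no filter, a minimum of 5 FPKM and a log2 threshold of 2. Of 54 member values, 38 moved by less than counting error and 15 by more, and 1 reversed, as Fdft1 was at −0.22 with curated rows only. It was then under 1 FPKM in both libraries (0.149 and 0.342), below the minimum for comparison, which left 6 members with a median of 2.29. The member median (2.16) was 1.68 after rescaling to a common sum and 1.84 after rescaling without ribosomal protein and rod genes. It stayed between 2.12 and 2.399 above the median of all genes in every alternative run. The 4130 lower genes became 6349 after rescaling to a common sum. With a threshold of 2 there were 1547 higher and 1942 lower genes, 5 members and 8 of the 14 other synthesis genes. The share of higher genes among those called was 33.0% without ribosomal protein and rod genes. With versioned accessions 5 of the 7 members had a value, and all 5 were higher. No paired analysis was possible because there was 1 library per group. Depth limited Fdft1 most, with 19.6 estimated fragments in retina, and leaving out a library was not possible.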
